A study of Mus musculus with 6 samples.

Results

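The genes described here are 42 components of the lysosome and of its proton pump, chosen by symbol from a fixed list. No cut on a measured value picked them, but the list was made with earlier results of these data known. They comprise 15 genes of the vacuolar-type ATPase (V-ATPase), 17 of lysosomal hydrolases and their helpers, 7 of lysosomal membrane proteins and the 3 transcription factor genes Tfeb, Tfe3 and Mitf. All 42 were among the 26214 genes listed in each count file, and all 42 passed the filter on low counts that left 14709 genes for testing.

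Lysosomes are acidic organelles that break down proteins, lipids and glycans delivered by endocytosis and autophagy. The V-ATPase acidifies them: its V1 sector in the cytosol hydrolyses ATP and turns a ring of the V0 sector in the membrane, which carries protons inward. TFEB, TFE3 and MITF are related transcription factors that bind E-box elements in promoters of lysosomal genes, and their entry into the nucleus is held back by mTORC1 at the lysosome. In fat cells lysosomes also take part in lipid breakdown, through the acid lipase encoded by Lipa.

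Transcripts were counted by RNA-seq in a mouse line of brown preadipocytes, made immortal and then differentiated in culture to brown fat cells, the cells that burn fat for heat. Rotenone, which blocks complex I of the respiratory chain, was given at 100 nM for 16 h on day 7 of differentiation, and control cultures had the solvent DMSO for as long. Cells of both groups had been induced for 3 days in a mix of dexamethasone (500 nM), IBMX (0.5 mM), indomethacin (0.125 mM), insulin (20 nM) and the thyroid hormone T3 (1 nM) in medium with 10% serum, and then kept in insulin and T3. The labels do not say how the line was made or whether it is 1 clone. The 3 files deposited for rotenone hold the same count for every gene and so differed by less than sampling noise; they entered as 1 library, set against 3 DMSO libraries. The 3 DMSO libraries differed from one another by more than counting noise, with a chi-square per gene between 5.21 and 8.91.

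Total counts were 21611589 in the rotenone library and 26085061 to 29194179 in the DMSO libraries. Every one of the 42 genes had at least 164 counts with rotenone and at least 66 counts in each DMSO library, so none was near the floor of 3 counts. Fat cell markers were abundant, with Fabp4 at 5293 CPM in the rotenone library and 4855 to 5589 CPM in the DMSO libraries (CPM, a count scaled to library size by the TMM method). Ucp1 stood at 18.5 CPM with rotenone and 54.7 to 74.4 CPM with DMSO, and the brown fat gene Dio2 had 0 counts with rotenone and at most 0.24 CPM with DMSO. In bulk RNA such as this, fewer cells of a type and less RNA per cell cannot be told apart. Because rotenone is represented by 1 library, the tests take the spread from the DMSO libraries and assume that rotenone cultures vary as little. A stricter reading assumes a coefficient of variation of 20% for every library, and it is named below as the 20% setting.

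Lysosomal transcripts were mostly higher with rotenone. By edgeR's quasi-likelihood test with Benjamini-Hochberg adjustment over all genes, 31 of the 42 rose and 2 fell at an adjusted p under 0.05, while 27.6% of all genes tested rose and 28.5% fell. The median log2 fold change was 0.57 over the 42 genes and -0.04 over all genes tested. By size, 8 of the 42 rose at least 2-fold, against 5.53% of all genes, and both that fell did so by at least 2-fold, against 11.3% of all genes. The rotenone value lay above all 3 DMSO values for 37 of the 42 genes, below them for 3 and among them for 2; over all genes tested these shares were 41.3% above and 44.9% below. Under the 20% setting 13 of the 42 were called higher and 2 lower, against 9.57% and 14% of all genes. Summed over the 42 genes, the level was 7822 CPM with rotenone and 4898 to 5096 CPM with DMSO.

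**Figure D1:**
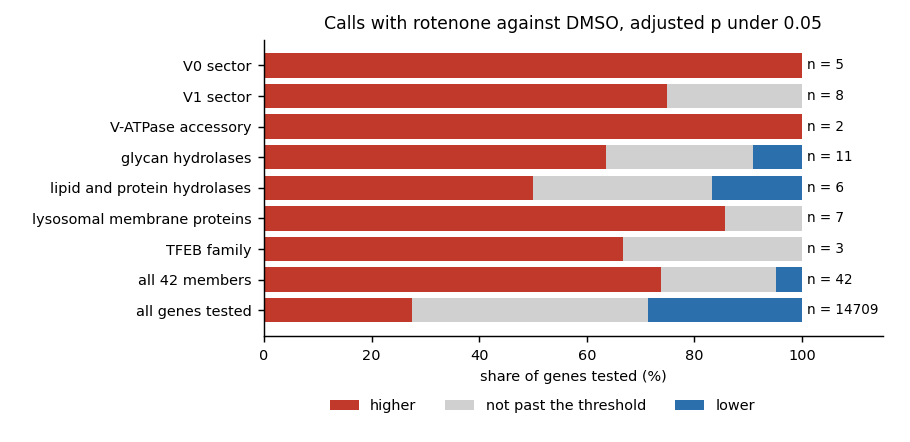
Share of the genes tested in each group that were higher (red), lower (blue) or not past the threshold (grey) with rotenone against DMSO, in percent, with the number of genes at the right. Both accessory V-ATPase genes and all 5 V0 genes were higher, and the 2 genes that fell were hydrolases; the bottom bar gives all 14709 genes tested.

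Other measures moved in the same library, in which 27.6% of all genes tested rose and 28.5% fell. Of 12 markers of preadipocytes and fibroblasts, 10 were tested, 6 rose and 1 fell, and their summed level was 4260 CPM with rotenone and 1401 to 1565 CPM with DMSO. Of 10 brown fat cell markers, 9 were tested, 1 rose and 6 fell, and their summed level was 8445 CPM with rotenone and 9507 to 10587 CPM with DMSO. Short transcripts were also higher in general: the median log2 fold change was 0.24 in the shortest of 10 equal classes of genes by transcript length and -0.27 in the longest. An offset for transcript length and GC content left 33 of the 42 genes higher and 2 lower. The part of the shift in cell markers in the lysosomal result was not tested.

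Among the regulators, Tfeb and Tfe3 were higher with rotenone and Mitf was not called. TFEB and TFE3 are the family members best known for driving lysosomal genes, and MITF is best known from pigment cells. Tfeb, on which much of the family's work in other tissues has been done, was at 38.1 CPM with rotenone and at 25.7, 26.0 and 24.7 CPM with DMSO, a rise of 0.59 ± 0.11 (log2 fold change ± SE; adjusted p = 0.00011). Tfe3, which binds the same sites, was at 94.3 CPM with rotenone and 57.8, 60.4 and 60.2 CPM with DMSO, and rose by 0.67 ± 0.08 (adjusted p = 5.7e-07). For both genes the rotenone value was above every DMSO value, as for 41.3% of all genes tested, but neither was called under the 20% setting. Mitf stood at 8.06 CPM with rotenone and 6.02, 5.16 and 7.30 CPM with DMSO, with a log2 fold change of 0.39 ± 0.23 (adjusted p = 0.15), and it passed the threshold with the length and GC offset (0.58, adjusted p = 0.039). Per kilobase of the longest annotated transcript, Tfeb was at 16.3 CPM per kb with rotenone and 10.9 ± 0.29 CPM per kb with DMSO (SD, n = 3). Tfe3 lay below it, at 14.9 CPM per kb with rotenone and 9.40 ± 0.23 CPM per kb with DMSO. Mitf was lowest, at 1.65 CPM per kb with rotenone and 1.26 ± 0.22 CPM per kb with DMSO. The order of Tfeb and Tfe3 depends on the lengths used, 2.34 kb for Tfeb and 6.33 kb for Tfe3. In CPM Tfe3 was above Tfeb in both groups, and which transcripts these cells use was not measured.

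Genes with a part in controlling the family were read from a list of 15, which holds Rag GTPases, folliculin and its partners, mTOR, calcineurin subunits and others. Of these 13 were tested, 6 rose and 2 fell, with a median of 0.13, while 27.6% of all genes tested rose and 28.5% fell. With scaling by library size only 4 rose and 4 fell, and with the length and GC offset 7 rose and 1 fell. Rragd, which encodes the RagD GTPase that brings TFEB to the lysosome, was at 11.6 CPM with rotenone and 5.98, 5.16 and 6.70 CPM with DMSO, a rise of 0.96 ± 0.20. Flcn, which encodes folliculin, the activator of GTP hydrolysis by RagC and RagD, was at 87.8 CPM with rotenone and 52.5, 51.5 and 47.1 CPM with DMSO (0.81 ± 0.08). Rraga, the RagA gene, rose by 0.48 ± 0.07. The largest change in the list was a fall: Map4k3, a kinase in amino acid signalling to mTORC1, was at 15.1 CPM with rotenone and 28.7, 31.5 and 34.0 CPM with DMSO (-1.05 ± 0.13, adjusted p = 2.1e-06). Tfec, the other member of the factor family, had 0 counts in all 4 libraries.

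Promoters of the lysosomal genes were searched for the E-box core that this family binds, on both strands of the window around each gene's start. RefSeq windows of 300 bases on GRCm38.p6, from 250 bases before to 50 after a gene's start, were at hand for 37 of the 42 genes. The E-box CACGTG was found for 11 of the 37 (29.7%), against 8.09% of all 27025 genes with a window and 7.15% of all 32851 windows. The sets are unlike: all 37 passed the filter on low counts, and the 27025 include genes that did not. Each of the 11 also had the longer form TCACGTG on either strand, found in 4.29% of all genes, and 6 had the palindrome TCACGTGA, found in 1.12% of all genes; each longer form contains the shorter. CACGTG is also bound by other factors, among them those of the MYC, USF and clock families. The match nearest the start is printed for each of the 11 genes, with 16 bases on either side, so that the flanks can be compared; sequences run 5′ to 3′ on the gene's own strand, and capitals mark CACGTG.
Atp6v0b, chr4:117887326-117887363, minus strand: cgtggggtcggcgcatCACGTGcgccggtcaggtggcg
Atp6v0d1, chr8:105566046-105566083, minus strand: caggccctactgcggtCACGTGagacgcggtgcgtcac
Atp6v0e, chr17:26676383-26676420, plus strand: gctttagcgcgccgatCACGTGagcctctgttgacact
Atp6v1a, chr16:44139369-44139406, minus strand: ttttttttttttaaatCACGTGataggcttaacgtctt
Clcn7, chr17:25133382-25133419, plus strand: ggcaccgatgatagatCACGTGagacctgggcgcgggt
Gaa, chr11:119267807-119267844, plus strand: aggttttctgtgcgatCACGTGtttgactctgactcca
Gla, chrX:134601178-134601215, minus strand: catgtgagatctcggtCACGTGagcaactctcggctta
Glb1, chr9:114401014-114401051, plus strand: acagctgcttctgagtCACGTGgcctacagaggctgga
Lamp1, chr8:13159130-13159167, plus strand: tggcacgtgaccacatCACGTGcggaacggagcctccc
Mcoln1, chr8:3500458-3500495, plus strand: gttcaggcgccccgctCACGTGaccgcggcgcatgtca
Naglu, chr11:101070005-101070042, plus strand: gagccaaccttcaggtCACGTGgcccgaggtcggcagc

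The E-box sat within 20 bases of the RefSeq start that sets the window in Atp6v0b, Atp6v0d1, Atp6v0e, Clcn7 and Lamp1, and 194 bases before it in Gla. Gene models of GENCODE can begin elsewhere, at 134601125 for Gla (minus strand) and 26663231 for Atp6v0e (plus strand), so these distances hold for the RefSeq starts only. In each of these 11 nearest matches the core follows a t. Of these 11 genes 9 rose with rotenone, none fell and Atp6v1a and Glb1 were not called. Of the 26 genes with a window and no E-box, 18 rose, 2 fell and 6 were not called. The median log2 fold change was 0.61 with an E-box and 0.57 without one. No window of Tfeb, Tfe3 or Mitf held the core. Whole windows are shown for Lamp1, which had 4 E-boxes, the most of any of these genes, and for Lipa, the gene with the largest fall, which had none.
Lamp1, chr8:13158911-13159210, plus strand: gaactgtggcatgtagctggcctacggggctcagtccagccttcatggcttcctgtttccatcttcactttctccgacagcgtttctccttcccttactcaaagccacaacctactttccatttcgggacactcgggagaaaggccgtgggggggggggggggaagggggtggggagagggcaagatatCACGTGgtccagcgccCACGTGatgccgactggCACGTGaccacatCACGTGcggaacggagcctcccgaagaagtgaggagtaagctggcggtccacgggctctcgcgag
Lipa, chr19:34527425-34527724, minus strand: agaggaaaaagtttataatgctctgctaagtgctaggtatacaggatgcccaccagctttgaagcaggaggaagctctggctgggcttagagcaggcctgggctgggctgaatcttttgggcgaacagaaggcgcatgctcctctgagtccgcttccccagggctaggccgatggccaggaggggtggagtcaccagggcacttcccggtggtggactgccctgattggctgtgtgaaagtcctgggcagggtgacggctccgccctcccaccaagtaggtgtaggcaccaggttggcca

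V-ATPase genes rose together: 13 of 15 were higher and none lower, with a median log2 fold change of 0.50, and 4 were called under the 20% setting. Their summed level was 2777 CPM with rotenone and 1845 to 1858 CPM with DMSO. All 5 genes of the V0 sector, the membrane part that carries protons, were among those that rose. Atp6v0c, which encodes the proteolipid of the rotating ring (chromosome 17, 24163866 to 24169702, minus strand, GRCm38), was at 453 CPM with rotenone and 223, 239 and 233 CPM with DMSO (0.97 ± 0.06, adjusted p = 2.6e-10). A processed copy listed as Atp6v0c-ps2 moved with it, at 413 CPM with rotenone and 202, 216 and 212 CPM with DMSO, so the division of reads between the gene and its copy is uncertain. Atp6v0b, a second proteolipid of the ring, was at 187 CPM with rotenone and 104, 112 and 108 CPM with DMSO (0.80 ± 0.07). It shares 11.8% of its exon bases with the antisense gene Gm12841, which also rose (0.80 ± 0.11); the labels do not say whether strand was used in counting.

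The other V0 genes rose by less. Atp6v0a1, the subunit through which protons enter and leave, was at 84.1 CPM with rotenone and 62.5, 59.4 and 62.1 CPM with DMSO (0.46 ± 0.08). Atp6v0d1, which links the ring to the central stalk, was at 116 CPM with rotenone and 87.9, 85.2 and 90.6 CPM with DMSO (0.40 ± 0.07). Atp6v0e, a small membrane subunit, was at 293 CPM with rotenone and 233, 236 and 223 CPM with DMSO (0.35 ± 0.07, and 0.23 with scaling by library size only). In each of these 3 genes the rotenone value was above every DMSO value, as for 41.3% of all genes tested. None of the 3 was called under the 20% setting.

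In the V1 sector, the part that hydrolyses ATP, 6 of 8 genes rose and the changes were less even. Atp6v1g1, a subunit of the outer stalks, was at 304 CPM with rotenone and 141, 150 and 145 CPM with DMSO, a rise of 1.07 ± 0.06 (adjusted p = 9.1e-11). Atp6v1e1, which pairs with it in the outer stalks, was at 156 CPM with rotenone and 134, 136 and 131 CPM with DMSO (0.23 ± 0.07), a call lost with scaling by library size only (0.11, adjusted p = 0.19). Whether the changes of these stalk partners differ was not tested. Atp6v1f, on the central stalk, was at 176 CPM with rotenone and 107, 114 and 109 CPM with DMSO (0.68 ± 0.07), a value of 0.41 with the length and GC offset. Atp6v1h, a regulatory subunit, was at 70.2 CPM with rotenone and 47.8, 43.3 and 44.4 CPM with DMSO (0.64 ± 0.09).

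The ATP-hydrolysing head is built of A and B subunits. Atp6v1b2, the B subunit gene, was at 205 CPM with rotenone and 147, 144 and 145 CPM with DMSO, and rose by 0.50 ± 0.07 (adjusted p = 3.0e-06). Atp6v1a, the catalytic A subunit gene, was at 241 CPM with rotenone and 231, 223 and 241 CPM with DMSO, so its groups overlapped (0.06 ± 0.07, adjusted p = 0.47). Atp6v1c1, which bridges V1 and V0, gave 90.1 CPM with rotenone and 88.3, 86.6 and 86.9 CPM with DMSO (0.05 ± 0.07, adjusted p = 0.57). The signs of Atp6v1a and Atp6v1c1 turned with scaling by library size only (-0.06 and -0.07), and Atp6v1c1 was called higher with the length and GC offset (0.23, adjusted p = 0.01). Atp6v1d, a shaft of the rotor, was at 121 CPM with rotenone and 99.6, 96.2 and 95.1 CPM with DMSO (0.32 ± 0.07, and 0.20 with scaling by library size only).

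Both accessory genes rose. Atp6ap1, which is needed for assembly of the V0 sector, was at 221 CPM with rotenone and 107, 102 and 106 CPM with DMSO (1.08 ± 0.07, adjusted p = 1.3e-10). Atp6ap2, also known as the prorenin receptor, was at 58.7 CPM with rotenone and 33.1, 31.0 and 33.6 CPM with DMSO (0.85 ± 0.10). Both were called under the 20% setting, together with Atp6v0c and Atp6v1g1.

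Per length, the small subunits were the most abundant. With DMSO the highest levels were those of Atp6v1f, at 137 ± 4.7 CPM per kb, and Atp6v1g1, at 128 ± 4.1 CPM per kb (SD, n = 3). With rotenone Atp6v1g1 stood first at 268 CPM per kb and Atp6v1f next at 219 CPM per kb. In the middle of the DMSO order Atp6v1a (54.7 ± 2.2), Atp6v0d1 (54.0 ± 1.6) and Atp6v1b2 (51.4 ± 0.42 CPM per kb) lay close, the first 2 within their SD. Atp6v1h was the lowest, at 14.5 CPM per kb with rotenone and 9.35 ± 0.49 CPM per kb with DMSO. These lengths are of the longest annotated transcript, and which transcripts these cells use was not measured.

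**Figure D2:**
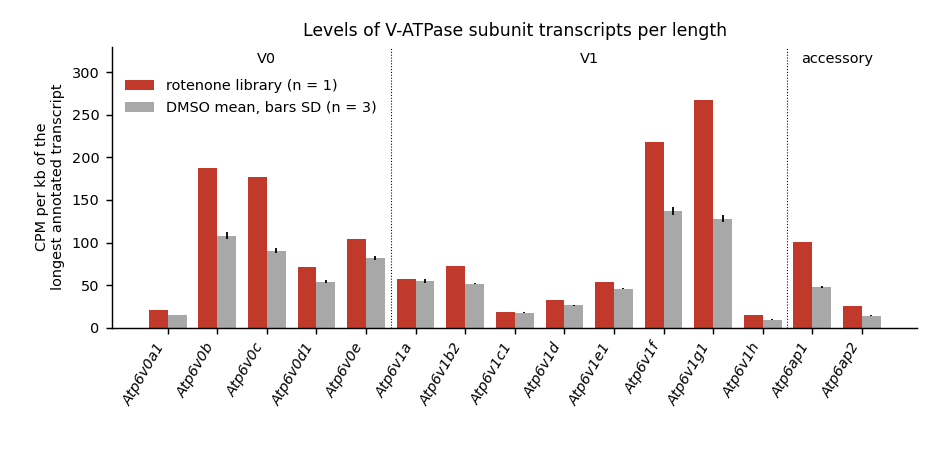
Level of each V-ATPase gene in CPM per kilobase of its longest annotated transcript, with the rotenone library (red, n = 1) left of the DMSO mean (grey, bars SD, n = 3). The small V1 subunit genes Atp6v1g1 and Atp6v1f are the tallest in both groups, and the bars of Atp6v1a and Atp6v1c1 are nearly level.

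Other isoforms and factors that assemble the pump were read from lists. Of 11 other V-ATPase isoform genes, 5 were tested, 1 rose and 1 fell, and 4 had 0 counts in every library. Over all genes tested 27.6% rose and 28.5% fell. Tcirg1, the a3 isoform of the V0 a subunit, was at 96.4 CPM with rotenone and 57.8, 60.3 and 58.2 CPM with DMSO (0.72 ± 0.08). Atp6v0a2, the a2 isoform, was at 26.1 CPM with rotenone and 36.3, 36.8 and 28.1 CPM with DMSO (-0.36 ± 0.14, adjusted p = 0.037), a call that was lost without DMSO replicate 2 (-0.30, adjusted p = 0.089), with the length and GC offset (-0.21), with DESeq2 (-0.34) and with limma-voom (-0.36). Osteoclasts use the a3 isoform for bone resorption. Of 6 osteoclast markers 3 were tested: Ctsk rose (1.42 ± 0.22) and 2 were not called, with a lowest log2 fold change of -1.31 in the list. Acp5, not called, gave 0.33 ± 0.28. Under the 20% setting, with scaling by library size only and with the length and GC offset, 1 marker was called higher and 1 lower. Ocstamp, Dcstamp and Calcr had 0 counts with rotenone, and the summed level of the list was 20.1 CPM with rotenone and 9.13 to 13.9 CPM with DMSO. Their part in the change of Tcirg1 was not tested.

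Among 9 assembly and regulatory genes, 1 rose and 4 fell, with a median of -0.24, while 27.6% of all genes tested rose and 28.5% fell. With scaling by library size only none rose and 5 fell, and with the length and GC offset 2 rose and 3 fell. Ccdc115, an assembly factor of the V0 sector, was at 13.8 CPM with rotenone and 30.2, 28.5 and 29.9 CPM with DMSO (-1.09 ± 0.13, adjusted p = 7.1e-07). Its partner Tmem199 was at 32.7 CPM with rotenone and 21.8, 26.7 and 27.1 CPM with DMSO (0.38 ± 0.13, adjusted p = 0.016), a call lost with scaling by library size only (0.26, adjusted p = 0.097). Dmxl2 and Dmxl1, which encode large scaffold proteins that promote joining of V1 to V0, gave log2 fold changes of -1.17 ± 0.28 and -0.48 ± 0.11. The call for Dmxl1, whose transcript is 12.2 kb long, was lost with the length and GC offset (-0.18, adjusted p = 0.19).

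Of the 7 lysosomal membrane protein genes 6 rose, with a median log2 fold change of 0.93, and 4 were called under the 20% setting. Clcn7, which encodes the chloride-proton exchanger of lysosomes (chromosome 17, 25133391 to 25162104, plus strand), was at 103 CPM with rotenone and 35.5, 37.2 and 36.5 CPM with DMSO, a 2.83-fold difference (SE 0.08 on the log2 scale, adjusted p = 2.0e-11). Its partner subunit gene Ostm1, from the list of other membrane proteins, stood at 9.98 CPM with rotenone and 14.5, 16.3 and 13.2 CPM with DMSO and fell (-0.55 ± 0.17); it was named after its value was seen. Mcoln1, the calcium release channel TRPML1, was at 88.5 CPM with rotenone and 56.8, 61.2 and 56.7 CPM with DMSO (0.61 ± 0.08).

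Lamp1 and Lamp2 encode the heavily glycosylated proteins that line the lysosomal membrane. Lamp1 was at 1036 CPM with rotenone and 603, 512 and 525 CPM with DMSO (0.93 ± 0.08, adjusted p = 1.5e-08). Lamp2 was at 363 CPM with rotenone and 231, 235 and 244 CPM with DMSO (0.62 ± 0.06). Cd63, a tetraspanin of late endosomes and exosomes, was at 427 CPM with rotenone and 179, 199 and 187 CPM with DMSO (1.19 ± 0.07). For these 3 genes the rotenone value was above every DMSO value, as for 41.3% of all genes tested. Lamp1 varied most among the DMSO libraries, with an SD of 49.1 CPM, against 6.38 CPM for Lamp2 and 10.4 CPM for Cd63 (n = 3). Lamp1 shares 9.31% of its exon bases with Grtp1 on the opposite strand, which fell (-0.47 ± 0.16). Scarb2, which encodes the lysosomal membrane receptor LIMP-2, was at 98.3 CPM with rotenone and 105, 96.0 and 104 CPM with DMSO (-0.04 ± 0.08, adjusted p = 0.65), with overlapping groups and a sign that turned with the length and GC offset (0.10).

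Cd68 had the largest rise of the 42 genes and, with DMSO, the lowest level per length after Mitf. It encodes a LAMP-like protein used as a macrophage marker (chromosome 11, 69664213 to 69666153, minus strand). It was at 15.5 CPM with rotenone and 2.23, 3.43 and 3.29 CPM with DMSO, a 5.21-fold difference (2.38 ± 0.23, adjusted p = 4.8e-08). Of 14 other macrophage markers, 8 had 0 counts in all 4 libraries, among them Adgre1, Ptprc, Aif1 and C1qa, and 12 had 0 counts with rotenone. Their summed level was 1.18 CPM with rotenone and 1.25 to 2.33 CPM with DMSO, so the list did not rise with Cd68.

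Among the hydrolases 10 of 17 rose, 2 fell and 5 were not called, with a median log2 fold change of 0.43. Of the 11 enzymes that act on glycans, 7 rose and 1 fell. Neu1, the lysosomal sialidase, was at 114 CPM with rotenone and 47.7, 48.9 and 51.7 CPM with DMSO, a 2.32-fold difference (1.21 ± 0.08, adjusted p = 2.2e-10). Hexa, the alpha subunit of hexosaminidase A and the gene of Tay-Sachs disease, was at 187 CPM with rotenone and 87.6, 86.8 and 89.2 CPM with DMSO (1.09 ± 0.07). Gaa, the acid alpha-glucosidase that degrades glycogen in lysosomes, was at 213 CPM with rotenone and 102, 98.4 and 102 CPM with DMSO (1.08 ± 0.07). Gla, alpha-galactosidase A, was at 18.9 CPM with rotenone and 9.67, 11.5 and 8.53 CPM with DMSO (0.94 ± 0.17). These 4 enzymes were about 2-fold higher, and all 4 were called under the 20% setting. For each the rotenone value lay above every DMSO value, as it did for 41.3% of all genes tested.

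Manba, Man2b1 and Naglu rose by less, and none of the 3 was called under the 20% setting. Manba, the beta-mannosidase, was at 34.6 CPM with rotenone and 24.1, 20.9 and 21.4 CPM with DMSO (0.65 ± 0.12). Man2b1, the alpha-mannosidase, gave 0.49 ± 0.13, and Naglu, which acts on heparan sulfate, gave 0.43 ± 0.10. The other heparan and dermatan sulfate enzymes did not follow. Ids, the iduronate sulfatase on chromosome X (70343069 to 70365084, minus strand), fell to 9.53 CPM with rotenone, against 16.9, 19.5 and 21.7 CPM with DMSO (-1.01 ± 0.17, adjusted p = 5.3e-05). Idua, the iduronidase that acts in the step after Ids, was at 27.8 CPM with rotenone and 25.3, 27.0 and 25.7 CPM with DMSO (0.10 ± 0.11, adjusted p = 0.46), and its sign turned with scaling by library size only. Gusb, the beta-glucuronidase, was at 16.2 CPM with rotenone and 14.2, 13.8 and 13.1 CPM with DMSO (0.25 ± 0.15, adjusted p = 0.17).

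Glb1, the beta-galactosidase read in the senescence stain, was at 23.0 CPM with rotenone and 26.4, 26.8 and 28.0 CPM with DMSO. Its log2 fold change was -0.23 ± 0.12 (adjusted p = 0.10), and it was called lower with scaling by library size only (-0.35, adjusted p = 0.017). Glb1 shares 5.49% of its exon bases with Tmppe on the same strand, which gave 0.03 ± 0.17. For Hexa the shared part is 12.8%, with Tmem202 on the opposite strand, which had at most 0.60 CPM in any library.

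The 6 genes that act on lipids and proteins split: 3 rose, 1 fell and 2 were not called. Lipa, the acid lipase that splits cholesteryl esters and triglycerides (chromosome 19, 34492318 to 34527474, minus strand), was at 129 CPM with rotenone and 348, 292 and 310 CPM with DMSO. It fell by 1.29 ± 0.09 on the log2 scale (adjusted p = 1.7e-09), the largest fall of the 42 genes, and was called under the 20% setting too. Psap, whose product is cut into the saposins that help sphingolipid hydrolases, was the most abundant of the 42 per length. It was at 1628 CPM with rotenone and 939, 873 and 942 CPM with DMSO (0.83 ± 0.06, adjusted p = 2.0e-09). The ceramidase gene Asah1 and the peptidase gene Tpp1 rose by 0.28 ± 0.08 and 0.56 ± 0.09, and the call for Asah1 was lost with scaling by library size only (0.16, adjusted p = 0.11). Smpd1, acid sphingomyelinase, was at 94.8 CPM with rotenone and 92.8, 85.2 and 84.8 CPM with DMSO (0.12 ± 0.08, adjusted p = 0.21). Ppt1, a thioesterase that removes palmitate from proteins, gave 0.19 ± 0.11 (adjusted p = 0.13) and was called only without DMSO replicate 1 (0.25, adjusted p = 0.044).

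**Figure D3:**
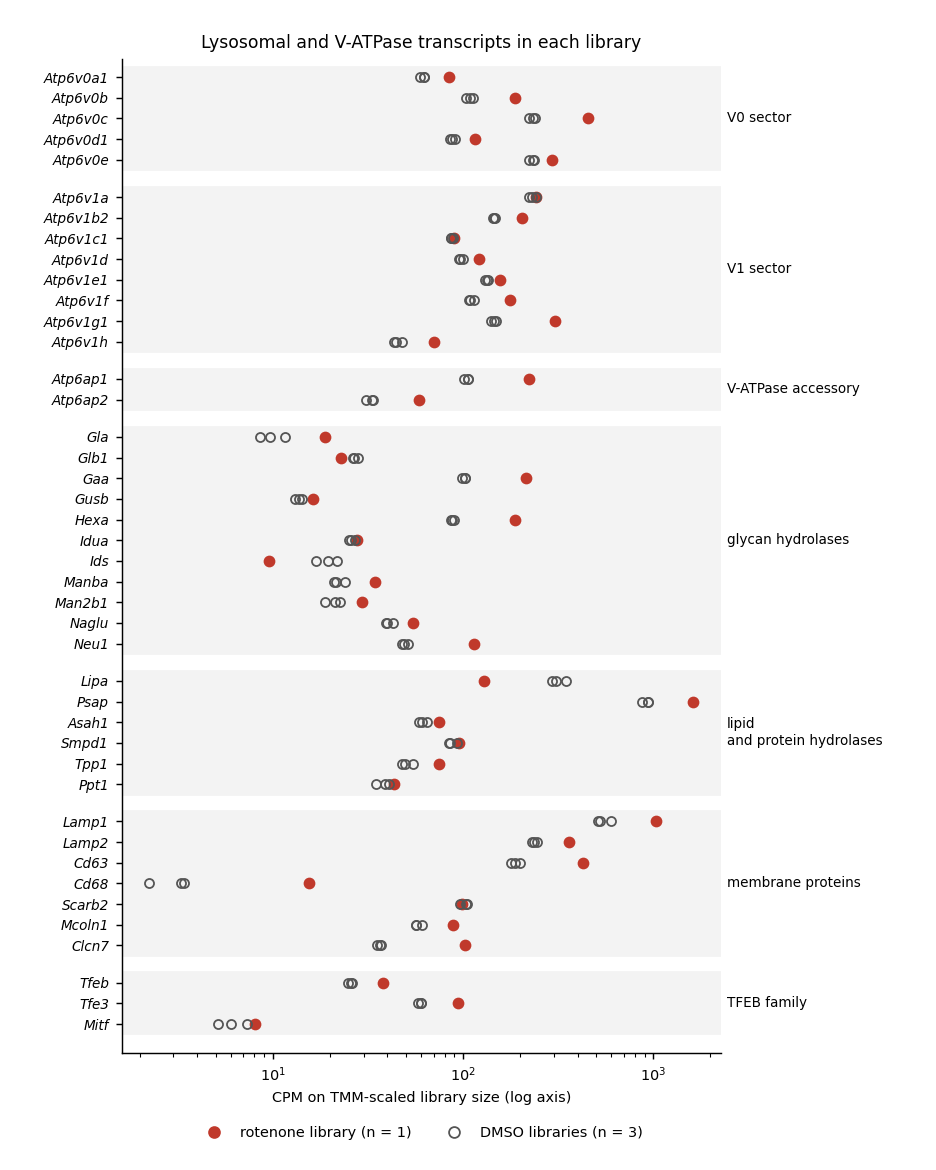
Level of each of the 42 genes in CPM on a log axis, with the rotenone library as a filled red dot (n = 1) and the 3 DMSO libraries as open circles. The red dot is right of all 3 circles for 37 genes and left of them for Glb1, Ids and Lipa; Atp6v1a and Scarb2 overlap.

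**Figure D4:**
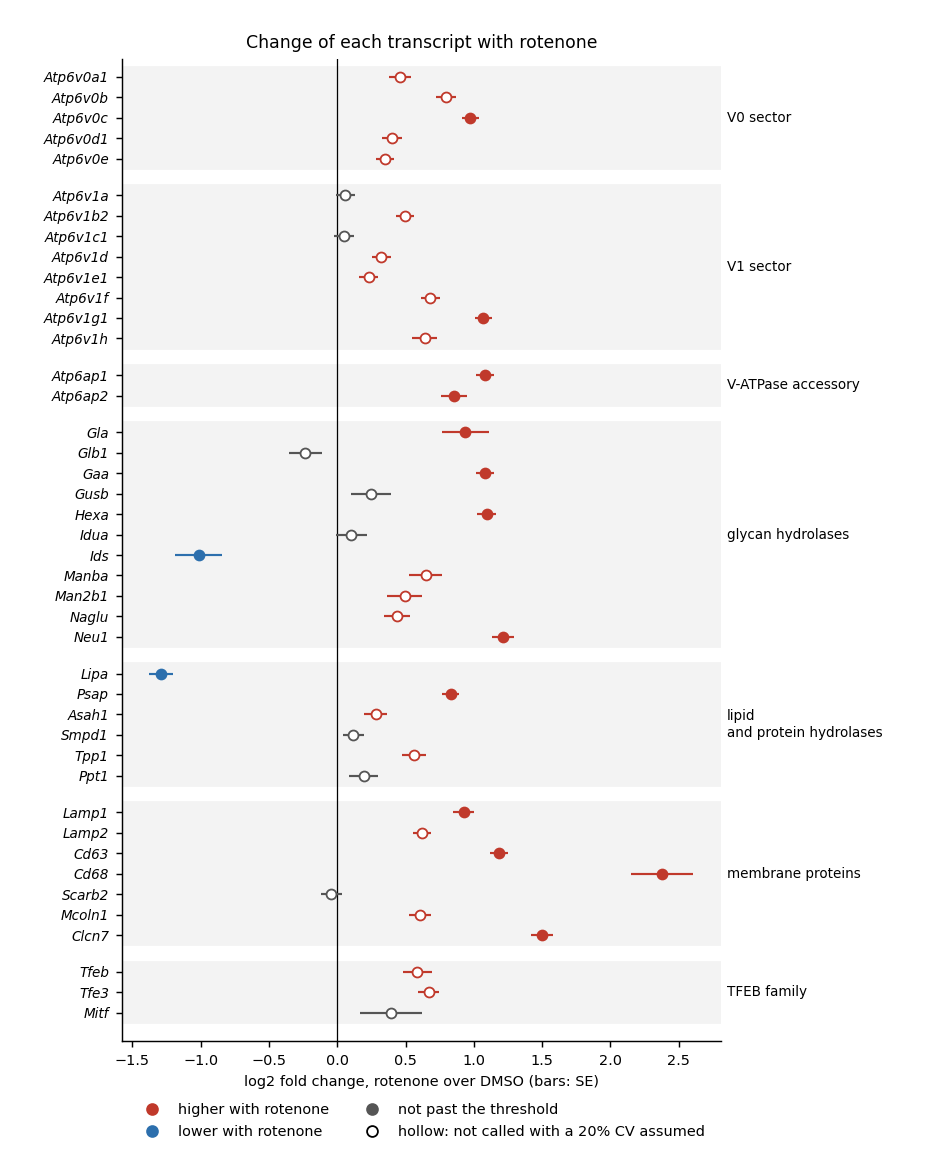
Log2 fold change of each gene, rotenone over DMSO, with its standard error, by group. Red marks the 31 genes that rose, blue the 2 that fell (Ids and Lipa) and grey the 9 not past the threshold; hollow marks were not called with a coefficient of variation of 20% assumed.

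The groups were compared by counts and medians only. The shares that rose were 86.7% of V-ATPase genes, 58.8% of hydrolases, 85.7% of membrane proteins and 66.7% of the TFEB family, which has 3 genes, against 27.6% of all genes. Medians of the log2 fold change were 0.50, 0.43, 0.93 and 0.59 in the same order, and 0.48, 0.33, 0.85 and 0.58 with the length and GC offset. V0 and V1 genes had medians of 0.46 and 0.41. The hydrolases spanned -1.29 to 1.21, with Lipa and Ids at the low end, and the V-ATPase genes spanned 0.05 to 1.08. Whether the groups differ from one another was not tested.

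Lysosomal genes outside the 42 moved in both directions, and their counts stand beside 27.6% higher and 28.5% lower over all genes. Of 34 other hydrolase and enzyme genes tested, 12 rose and 6 fell, with a median log2 fold change of 0.16; the list also holds Gba2, Sgpl1, Manea and Sumf1, whose enzymes act outside lysosomes. With scaling by library size only 11 rose and 9 fell, and with DESeq2 12 rose and 3 fell. Dpp7, a dipeptidyl peptidase, was at 33.9 CPM with rotenone and 14.1, 13.6 and 13.2 CPM with DMSO (1.32 ± 0.12). Scpep1, a serine carboxypeptidase, was at 468 CPM with rotenone and 243, 237 and 239 CPM with DMSO (0.97 ± 0.06). Gba2, the glucosylceramidase outside lysosomes, was at 4.42 CPM with rotenone and 7.98, 8.45 and 9.95 CPM with DMSO (-0.99 ± 0.23).

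Of 26 other membrane protein genes tested, 14 rose and 7 fell, with a median of 0.33. Npc1, which moves cholesterol out of lysosomes, was at 376 CPM with rotenone and 101, 110 and 127 CPM with DMSO, a 3.34-fold difference (1.74 ± 0.10, adjusted p = 8.7e-08). Its soluble partner Npc2, named after its value was seen, was at 1100 CPM with rotenone and 1041, 1076 and 1111 CPM with DMSO (0.04 ± 0.06), with overlapping groups. Pip4p1, a lysosomal phosphoinositide phosphatase, was at 240 CPM with rotenone and 80.2, 85.9 and 85.3 CPM with DMSO (1.52 ± 0.07). Slc15a4, a transporter of histidine and small peptides, rose by 1.15 ± 0.11, while Abcb9, a peptide transporter, was at 3.83 CPM with rotenone and 9.20, 7.69 and 7.34 CPM with DMSO (-1.07 ± 0.24).

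Of 24 genes that target enzymes and membranes to lysosomes, all tested, 9 rose and 3 fell, with a median of 0.12. With scaling by library size only 5 rose and 6 fell, with a median of 0.0023, and with the length and GC offset 10 rose and 1 fell, so the balance turned with the scaling. None was called under the 20% setting. Gnptg and Nagpa, which take part in making the mannose 6-phosphate tag, rose by 0.69 ± 0.13 and 0.49 ± 0.16. The call for Nagpa was lost with scaling by library size only (0.37) and with the length and GC offset (0.35). Gnptab of the same list, named after its value was seen, was not called (-0.0018 ± 0.13). Rab7, the GTPase of late endosomes, was at 277 CPM with rotenone and 199, 193 and 203 CPM with DMSO (0.49 ± 0.06). Sort1, the sorting receptor sortilin, was at 130 CPM with rotenone and 190, 179 and 179 CPM with DMSO (-0.49 ± 0.07).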

How the data were processed

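RNA-seq read counts per gene were measured in brown adipocytes treated with rotenone or DMSO. The deposited files hold whole-number counts per gene symbol, not normalized; per the submitters' processing notes TopHat2 and mm10 were used, and the counting program, annotation and use of strand are not stated there or in the labels. Total RNA went into a NEBNext Ultra RNA library, per the labels' protocols. The design text calls the replicates independent but does not name separate cultures. P-values therefore measure the spread between the DMSO libraries, which may be technical.

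The rotenone files were identical and entered as 1 library. Counts were scaled by TMM and filtered with filterByExpr in edgeR 4.0.16 (R 4.3.3). The robust quasi-likelihood F test had 2 residual degrees of freedom, with a biological coefficient of variation of 6.9%, Benjamini-Hochberg adjustment over 14709 genes and a threshold of 0.05. Standard errors were taken as the absolute log2 fold change over root F. Depth of 21611589 to 29194179 counts gives a floor of 3 counts at 0.101 to 0.147 CPM, which covers counting error only. Transcript lengths, GC content, positions and shared exons came from GENCODE M21 on GRCm38, which matched 24919 of 26214 symbols, and promoters from RefSeq.

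Alternatives were other scalings and filters, each DMSO library left out, DESeq2 1.42.0, voom in limma 3.58.1, a coefficient of variation of 20% in edgeR's likelihood ratio test, a test against 1.5-fold, no Rn45s, and an offset per library from medians in 8 by 8 bins of length and GC. The tests were tried on simulated data. The members and lists were chosen with earlier results of these data known. Genes named are the 42 members and, from each pathway list, up to 4 called genes with the largest changes and mean CPM of 1 or more; exceptions are marked, and 1 gene that the rule picks is not reported here.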

Additional observations from a re-analysis of the deposited data

How the results depend on the processing

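With a coefficient of variation of 20% assumed, 1408 genes were higher and 2063 lower of all tested; 13 of the 42 genes were higher, with 4 V-ATPase genes, 5 hydrolases and 0 genes of the TFEB family. In the test against 1.5-fold, 1203 genes were higher and 1731 lower, and 14 of the 42 were higher, with 5 V-ATPase genes, 5 hydrolases and 0 of the TFEB family. Those settings ask for larger changes by construction, and they lost 18 and 17 of the 33 calls among the 42 genes. No other setting moved the counts over the 42 genes, their 4 groups or all genes by more than 1.5 times. For the other lysosomal gene lists, library size only gave 5 higher and 6 lower for targeting and 4 and 4 for control of the TFEB family, and DESeq2 gave 8 and 1 for targeting and 12 and 3 for other hydrolases.

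With scaling by library size only, the median of all genes moved from -0.04 to -0.16, and signs turned for Atp6v1a (-0.0605), Atp6v1c1 (-0.0693), Idua (-0.0182) and Smpd1 (-0.0028). With the length and GC offset they turned for Smpd1 (-0.0002) and Scarb2 (0.10). None of these genes was called in the main test, and of them Atp6v1c1 was called higher with the offset (0.23, adjusted p = 0.01). No call among the 42 was lost with the median-ratio or upper quartile scaling, either filter, DESeq2, limma-voom, no Rn45s, the offset or any DMSO library left out. No paired analysis was possible because the 3 rotenone files are 1 library.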
